A study of Mus musculus with 18 samples.

Results

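The comparison described here is the basal one: striatum of Camk4 mutant mice against striatum of control littermates, all injected with saline. It rests on 6 of the 18 arrays of the series, 3 mutant saline and 3 control saline, chosen by their sample titles, with 1 animal per array. All were littermates of 10 to 20 weeks that had been caged singly and handled, and the striatum, with the nucleus accumbens, was taken 1 hour after an intraperitoneal injection. Another 3 mutant and 3 control animals of the same Arabic numbering were given 25 mg/kg cocaine. In these separate animals the genotype difference after the drug, not the basal one, could be measured. The remaining 6 arrays are of Roman-numbered cocaine animals and enter only alternative fits. The labels name CaMKIV as what the mutants lack. They do not say, in the sources used here, whether the allele is a complete or a conditional deletion, which exons it removes, or which promoter drives any recombinase. The description lines contradict the titles and the treatment protocol names cocaine for every animal, so the groups rest on the titles alone.

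Camk4 encodes CaMKIV, a calcium and calmodulin dependent kinase that is concentrated in the nucleus of neurons. Calcium entering through receptors and channels activates it through calmodulin and an upstream kinase, CaMKK. It phosphorylates the transcription factor CREB and its coactivator CBP, and CREB binds cAMP response elements in the promoters of immediate early genes such as Fos. Most neurons of the striatum are GABAergic medium spiny neurons, which carry dopamine receptors, DARPP-32 and the peptides enkephalin or substance P.

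All values are log2 expression values per probe set, made by the authors with GCRMA, and a difference is mutant minus control on that scale. The arrays were alike in level, with medians between 5.07 and 5.15 and a mean correlation of each with the other saline arrays of 0.9926 to 0.9934. Spiny neuron markers were bright in all 6, with Ppp1r1b (DARPP-32) at 13.3 to 13.4, Penk (enkephalin) at 13.89 or above and Drd2, the D2 dopamine receptor, at 11.6 to 11.8. Chat and Drd1 had no probe set named for them alone. The cortical markers Neurod6 and Tbr1 and the thalamic Slc17a6 did not pass the filter on low values. Nor did the choroid plexus gene Ttr and the blood genes Hba-a1 and Alas2. Other members of the cortical list (4 genes) and of the thalamus and septum list (6 genes) did pass. Among them were Nrgn, Lamp5 and Zic1, with means over the 6 arrays of 12.2, 11.1 and 8.02. The 3′ minus 5′ difference of the actin control probes was 2.41, 2.30 and 2.23 in mutants, against 1.89, 2.06 and 2.29 in controls. The groups overlapped, with means of 2.313 in mutants and 2.08 in controls. In the cocaine animals the order was the other way, with means of 2.325 in mutants and 2.427 in controls. A larger value means relatively less signal from the 5′ end of the message. All 6 animals had the Y-linked Eif2s3y between 7.61 and 7.92 and Xist between 1.81 and 2.55.

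Camk4 itself was lower in the mutants but far from absent. Its brighter probe set, 1426167_a_at, read 7.29, 7.14 and 7.47 in mutant saline mice, against 7.72, 7.59 and 7.64 in control saline mice. The dimmer one, 1421941_at, read 5.30, 5.26 and 5.36 in mutants and 5.60, 5.36 and 5.65 in controls. The groups did not overlap in either probe set, although the highest mutant and the lowest control nearly met in the second. The differences were -0.35 ± 0.10 (SE), 0.784 of the control level, and -0.23 ± 0.11, 0.853 of it (limma adjusted p = 0.778 for both). The remaining probe set, 1452572_at, lay near 2.0 on every array and was not tested.

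The cocaine animals gave the same direction. Probe set 1426167_a_at read 7.23, 7.29 and 7.24 in mutants and 7.54, 7.62 and 7.52 in controls. Probe set 1421941_at read 5.15, 5.17 and 4.95 in mutants and 5.48, 5.47 and 5.46 in controls. Over the 12 animals the genotypes did not overlap in either Camk4 probe set, 6 against 6, with ranges of 7.14 to 7.47 in mutants and 7.52 to 7.72 in controls for the brighter one. Relabelling genotype within treatment gave an exact two-sided p of 0.005 for each, the smallest that the 400 relabellings allow, for mean differences of -0.33 and -0.31. The labels do not place the probes relative to the mutated part of the gene, so the remaining signal does not measure how much functional message or protein was left.

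**Figure D1:**
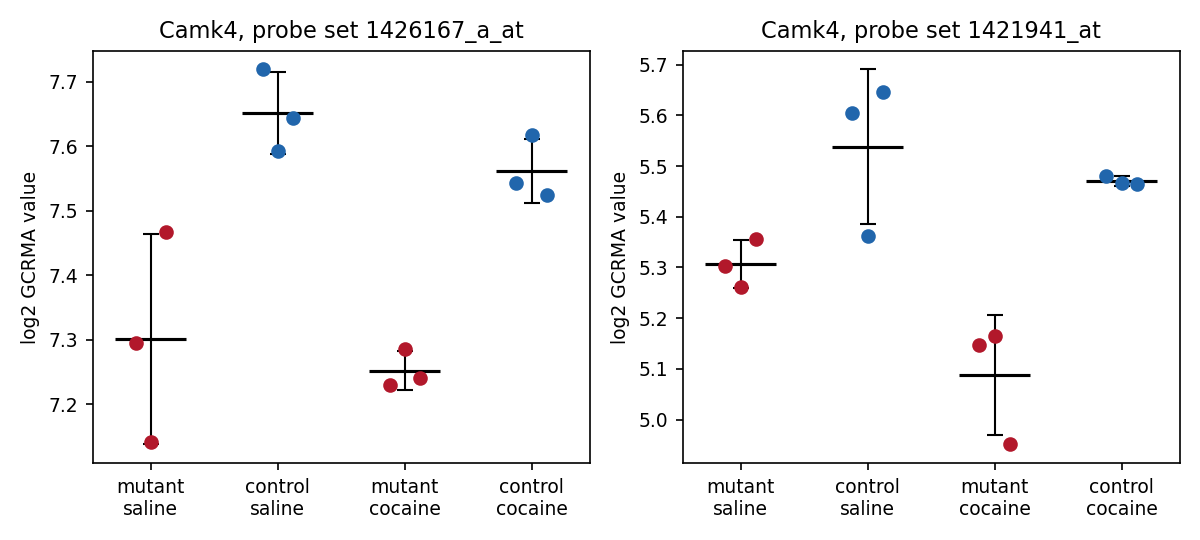
Camk4 in its 2 measured probe sets, as log2 GCRMA value per animal (y axis) in mutant and control mice after saline and after cocaine (x axis, 3 animals each). Points are animals, horizontal lines group means and bars 1 SD; the y axes do not start at 0. All 6 mutants lie below all 6 controls in both panels.

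Across the array, no probe set was called, those of Camk4 included. Of 12412 probe sets kept, limma called 0 at an adjusted p under 0.05 (0% of those tested), with a smallest adjusted p of 0.778. At an unadjusted p under 0.05 there were 756 (6.09%), 404 higher (3.25%) and 352 lower (2.84%). Differences were small: the median absolute difference was 0.0778, and the 5 and 95 percentiles lay at -0.25 and 0.22. The median standard error was 0.0967, which is larger than that median difference. With 3 animals against 3, an exact permutation test of a single value cannot go below p = 0.1.

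The 3 mutants lay entirely above or below the 3 controls in 1460 probe sets (11.8%), 902 higher (7.27%) and 558 lower (4.50%). That split depended on centring: with each array set to its own median, it was 721 higher and 663 lower. The larger separations ran mostly downward, with 53 probe sets at least 0.5 lower (0.427%) and 15 at least 0.5 higher (0.121%). Taken per gene, as the brightest probe set of each of 7468 genes, 618 were higher (8.28%) and 251 lower (3.36%), and 38.7% of all genes had a difference below 0.

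Since no gene passed in either direction, the 12 genes of smallest p per direction among the non-overlapping probe sets are described. None of them is a call, each has an adjusted p of 0.778, and the choice itself fixes that their groups do not overlap. They show what the strongest candidates look like.

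Among the 12 higher genes, Pacsin1 (syndapin), which links the endocytic machinery to actin in nerve terminals, read 11.23, 11.21 and 11.20 in mutants and 10.96, 11.00 and 10.96 in controls, a difference of 0.24 ± 0.04. Syngr1, the synaptic vesicle protein synaptogyrin, read 10.84, 10.91 and 10.79 in mutants, against 10.62, 10.60 and 10.66 in controls (0.22 ± 0.05). Aplp1, a neuronal relative of the amyloid precursor protein, read 12.42, 12.44 and 12.38 in mutants and 12.20, 12.23 and 12.29 in controls (0.17 ± 0.04). In these 3 probe sets the animals of each group lay close together, so that small differences separated the groups. A second probe set of Pacsin1 and a brighter one of Aplp1 each differed by 0.09 and overlapped.

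Bcan encodes brevican, a proteoglycan of the brain's extracellular matrix and perineuronal nets, and read 9.73, 9.86 and 9.82 in mutants and 9.51, 9.61 and 9.50 in controls (0.26 ± 0.06). Igsf8, an immunoglobulin-domain membrane protein that partners tetraspanins, differed by 0.21 ± 0.05. Rnf208, a RING finger protein, and Tmem223, a mitochondrial membrane protein, each differed by 0.27 ± 0.06. Pex6, an ATPase of peroxisome assembly, differed by 0.31 ± 0.07 in one probe set and by 0.13 and 0.12 in its other probe sets.

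Larger differences came with a wider spread among animals. Mios, a component of the GATOR2 complex upstream of mTORC1, read 6.74, 6.66 and 6.37 in mutants and 5.99, 5.13 and 5.73 in controls (0.97 ± 0.22), but its second probe set differed by only 0.03. Wnt2, a secreted Wnt ligand, read 7.06, 7.18 and 7.01 in mutants and 6.49, 6.51 and 5.97 in controls (0.76 ± 0.16). Car4, a membrane-bound carbonic anhydrase of brain capillaries, read 5.73, 5.90 and 6.23 in mutants and 5.20, 5.32 and 5.46 in controls (0.63 ± 0.15), with 0.46 in its second probe set, where the groups overlapped. Map3k7, the kinase TAK1 of the TGF-beta and inflammatory pathways, differed by 0.41 ± 0.09 in the named probe set, by 0.15 in another and by -0.06 in the remaining one.

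Among the 12 lower genes, 2 are regulators of calcium and G protein signalling. Rcan2, an inhibitor of the calcium-dependent phosphatase calcineurin, had the smallest p of all: 1450243_a_at read 6.69, 6.76 and 6.62 in mutants and 7.35, 7.25 and 7.33 in controls, a difference of -0.62 ± 0.08. The brighter Rcan2 probe set, with means of 12.41 in mutants and 12.52 in controls, differed by -0.11 and overlapped. Rgs4, which speeds GTP hydrolysis by Gi and Gq proteins and is abundant in striatum, read 8.96, 8.81 and 8.95 in mutants and 9.31, 9.16 and 9.42 in controls in 1448285_at (-0.39 ± 0.08). Its 2 brighter probe sets differed by -0.01 and -0.07.

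Gfap, the intermediate filament of astrocytes, was lower in both of its probe sets. 1426509_s_at read 6.08, 6.29 and 5.60 in mutants and 7.18, 6.71 and 6.78 in controls (-0.90 ± 0.20), and 1426508_at read 6.93, 6.91 and 6.62 in mutants and 7.68, 7.14 and 7.19 in controls (-0.52 ± 0.16). Glul, the astrocytic enzyme glutamine synthetase, read 9.77, 9.74 and 9.67 in mutants and 10.06, 9.94 and 10.02 in controls (-0.27 ± 0.06), and -0.11 in its brighter probe set. In bulk tissue, fewer cells of a type and less RNA per cell cannot be told apart. H1f2, a linker histone, was also lower in both its probe sets (-0.66 ± 0.12 and -0.38), as was Rfc4, a subunit of the clamp loader of DNA replication (-0.55 ± 0.12 and -0.37).

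The remaining lower genes were mostly read by probe sets of low signal. Map2, the dendritic microtubule protein, read 4.97, 5.21 and 5.46 in mutants and 6.02, 6.12 and 5.91 in controls in its one probe set (-0.80 ± 0.14). Mcl1, an anti-apoptotic BCL2 relative, differed by -0.89 ± 0.19 in 1416881_at but by between -0.28 and 0.00 in 5 brighter ones. Usp9x, a deubiquitinase, differed by -0.60 ± 0.11 in 1450037_at and by between -0.22 and 0.03 in 5 others. Decr2, of peroxisomal fatty acid oxidation, differed by -0.75 ± 0.13, Rnpc3, of the minor spliceosome, by -0.90 ± 0.18, and Gtf2h4, a TFIIH subunit, by -0.45 ± 0.10. In their other probe sets Rnpc3 differed by -0.37 and Gtf2h4 by -0.28 and -0.23, all overlapping.

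**Figure D2:**
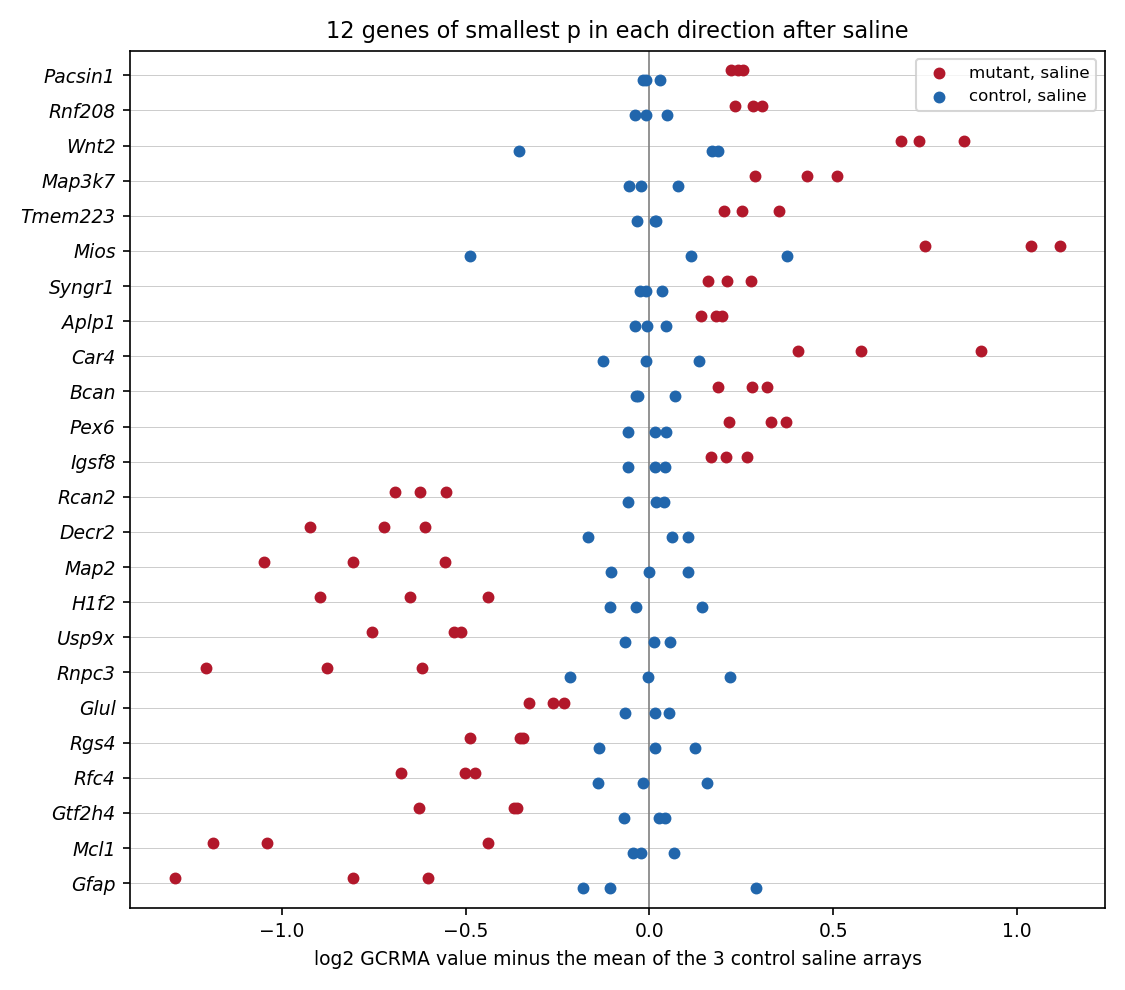
The 12 genes of smallest p in each direction after saline, each as its log2 GCRMA value per animal minus the mean of the 3 controls (x axis), with mutants above controls in each row. The rows from Pacsin1 to Igsf8 are the higher genes and those from Rcan2 to Gfap the lower genes; the groups do not overlap because that was required, and the spread among mutants is widest for Mcl1, Gfap and Rnpc3.

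Of these 24 genes, 19 had a difference of the same sign in the cocaine animals, which did not enter their choice. The values were smaller there: Pacsin1 differed by 0.15 ± 0.09 after cocaine, Wnt2 by 0.26 ± 0.20, Decr2 by -0.50 ± 0.28 and Rcan2 by -0.21 ± 0.27. Rgs4 was the 1 gene of the 24 whose groups again did not overlap. Of all probe sets, 6.10% were lower and 6.07% higher without overlap after cocaine. In Rgs4, 1448285_at read 8.06, 8.28 and 8.24 in cocaine mutants and 8.88, 8.32 and 8.47 in cocaine controls (-0.36 ± 0.15). The highest mutant and the lowest control nearly met. Gfap had the opposite sign, at 0.37 ± 0.32 in 1426509_s_at, as did Car4 at -0.27 ± 0.16.

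Over all probe sets, those separated after saline mostly overlapped after cocaine. Of the 902 higher after saline, 88 (9.76%) were higher without overlap after cocaine, against 6.07% of all probe sets, and 61% had a difference above 0, against 49.9% of all. Of the 558 lower after saline, 40 (7.17%) were lower without overlap after cocaine, against 6.10% of all, and 65.8% had a difference below 0, against 50.1% of all. These shares are descriptions, since probe sets of 1 array are not independent. Limma called 1 probe set (0.00806%) in the cocaine animals, Tmem87a, and 0 (0%) in the test of the difference between the saline and cocaine effects, with 562 (4.53%) at an unadjusted p under 0.05. The saline and cocaine differences were correlated across the 12412 probe sets by r = 0.132 (rho = 0.145), and the 2 comparisons share no array.

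**Figure D3:**
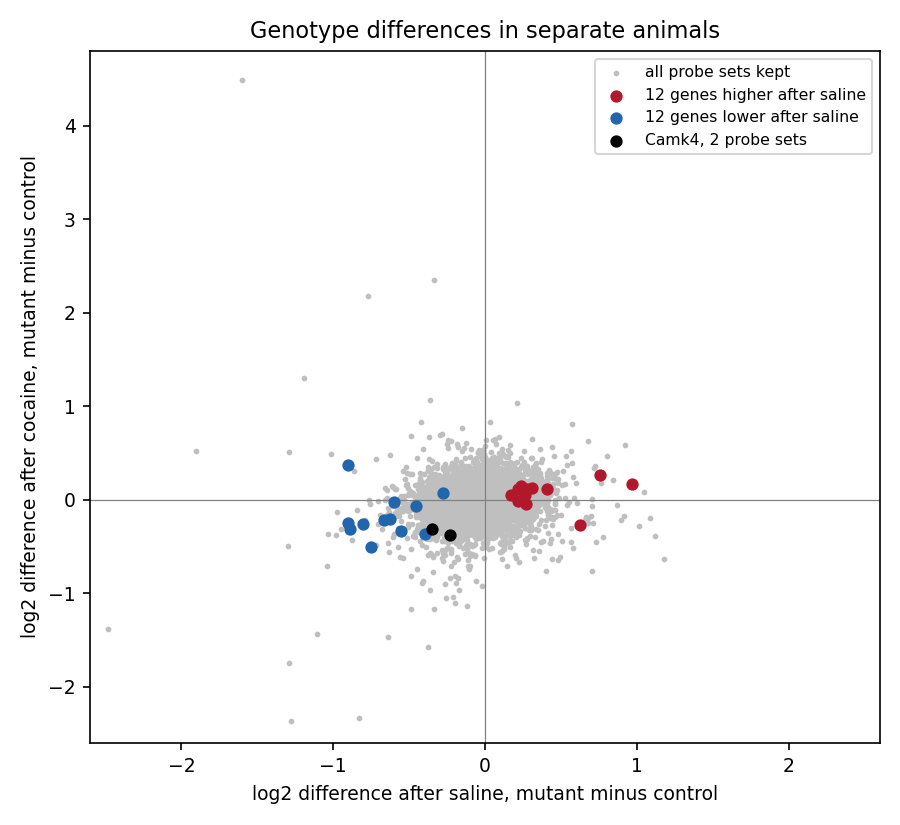
Genotype difference after saline (x axis) against the genotype difference in the separate cocaine animals (y axis), both log2, mutant minus control, 1 point per probe set kept. Grey points are all 12412 probe sets, coloured points the 12 higher and 12 lower genes of the saline comparison and black points the 2 Camk4 probe sets; 19 of the 24 named genes lie in the lower left or upper right quadrant.

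Of 29 genes of the CaMK and CREB pathway, 19 were measured, 11 with a difference above 0 and 8 below, and their median was 0.0131 (-0.0160 with the actin difference as a covariate), against 0.0298 over all genes. After cocaine their median was -0.0913, with 14 of 19 below 0, against 48% of all genes. Camk2b and Camk2d, catalytic subunits of CaMKII, differed by 0.07 ± 0.05 and 0.04 ± 0.14, and Camkk2, the upstream kinase, by -0.07 ± 0.14. The calcineurin subunits Ppp3ca and Ppp3r1 differed by 0.01 ± 0.03 and 0.04 ± 0.05, and Crebbp, which encodes CBP, by 0.07 ± 0.09. Camk1 and Camk1d, kinases of the same family, differed by 0.08 ± 0.09 and 0.06 ± 0.07. Creb1 itself did not pass the filter.

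The groups did not overlap in 3 members of this list, all lower and all on chromosome 18, against 3.36% of all genes lower without overlap. Besides Camk4 they were Camk2a, the alpha subunit of CaMKII, which read 4.73, 3.89 and 4.42 in mutants and 5.62, 4.84 and 5.13 in controls (-0.85 ± 0.26), and Crem, a CREB relative that can repress the same promoters. Crem read 6.54, 6.72 and 6.71 in mutants and 6.78, 6.88 and 6.90 in controls (-0.20 ± 0.09), and differed by -0.40 in the cocaine animals. The Camk2a probe set is dim on these arrays and differed by -0.11 ± 0.31 after cocaine. Chromosome 18 as a whole had 14 genes higher and 12 lower without overlap of 197 measured, against 8.28% and 3.36% of all genes. Its median was 0.0153.

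The genes beside the altered locus were read as well. Of the 20 protein-coding genes on either side of Camk4, 23 were measured. Fam13b (0.21) and Reep2 (0.14) were higher without overlap, 2 of 23 against 8.28% of all genes, and 0 were lower, against 3.36%. The 23 differences ran from -0.193 to 0.212 with a median of 0.0436, and the median was -0.0278 in the cocaine animals.

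The group that leaned furthest from the rest was the immediate early transcription factors, the fast targets of calcium and CREB signalling. Of 22 genes listed, 21 had a probe set of their own and 10 passed the filter on low values. Fosb, Egr3, Egr4, Nr4a2 and Nr4a3 were among those that did not pass. Of the 10 measured members, 9 had a difference below 0, against 38.7% of all genes, and the median was -0.30. Fos was the 1 member without overlap, against 3.36% of all genes lower without overlap. It read 4.65, 4.81 and 4.79 in mutants and 6.52, 5.00 and 6.06 in controls (-1.11 ± 0.34, limma adjusted p = 0.778). The mutants were close together and low in Fos, and the controls were spread, with replicate 2 barely above the mutants. Jun, its dimerisation partner, read 7.23, 7.35 and 7.58 in mutants and 8.22, 7.89 and 7.52 in controls (-0.49 ± 0.18), so that 1 control fell among the mutants.

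The zinc finger factor Egr2 read 6.37, 6.11 and 7.10 in mutants and 7.90, 7.02 and 6.57 in controls (-0.64 ± 0.37). Nr4a1, an orphan nuclear receptor, read 8.71, 8.80 and 9.34 in mutants and 9.79, 9.29 and 8.99 in controls (-0.41 ± 0.23). Egr1, another zinc finger factor, differed by -0.19 ± 0.14, Junb by -0.20 ± 0.15 and Jund, which is largely constitutive, by 0.03 ± 0.06. The order within groups recurred: mutant replicate 3 was the highest mutant and control replicate 1 the highest control in Egr2, Jun and Nr4a1.

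The activity-induced effectors leaned the same way by less. Of 26 genes listed, 23 had a probe set of their own and 15 were measured. Of these 15, 0 were without overlap, where 8.28% of all genes were higher and 3.36% lower. Below 0 were 13, against 38.7% of all genes, and the median was -0.19. Leaving out an array moved that median to -0.114 without mutant replicate 1, -0.121 without control replicate 1 and -0.124 without control replicate 3. Rgs2, which dampens Gq signalling, read 12.38, 12.38 and 12.61 in mutants and 12.78, 12.54 and 12.73 in controls (-0.23 ± 0.08). Arc, a postsynaptic regulator of AMPA receptor endocytosis, read 6.37, 7.38 and 7.66 in mutants and 7.89, 7.52 and 7.46 in controls (-0.49 ± 0.31). Dusp6, a phosphatase that switches off ERK, read 8.52, 8.50 and 8.61 in mutants and 9.18, 8.58 and 8.67 in controls (-0.27 ± 0.15). Nptx2, a secreted synaptic pentraxin, differed by -0.29 ± 0.20 and Homer1 by -0.19 ± 0.14.

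In the cocaine animals the same lists had medians of -0.86 (9 of 10 below 0, against 48% of all genes) and -0.52 (15 of 15 below 0), with Fos at -1.43 and Arc at -1.17. These are differences after the drug and do not repeat the basal measurement. Control means of Fos were 5.86 after saline and 10.57 after cocaine, and those of Arc 7.62 and 10.93. Homer1 went the other way, with 8.50 and 7.95. The list means per animal after saline were 7.32, 7.30 and 7.61 in mutants and 8.09, 7.69 and 7.60 in controls for the immediate early factors, so the groups overlapped. Their median was -0.514 without control replicate 3, -0.496 without mutant replicate 3 and -0.219 without control replicate 1. It was 0.0226 with the actin 3′ minus 5′ difference as a covariate, and that of the effectors -0.0108, while Fos stayed at -0.93. Control replicate 1, the animal with the highest list mean, also had the lowest actin difference, 1.89. In the cocaine animals the mean actin difference was 2.325 in mutants and 2.427 in controls. The part of RNA quality in these lists was not tested beyond this.

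**Figure D4:**
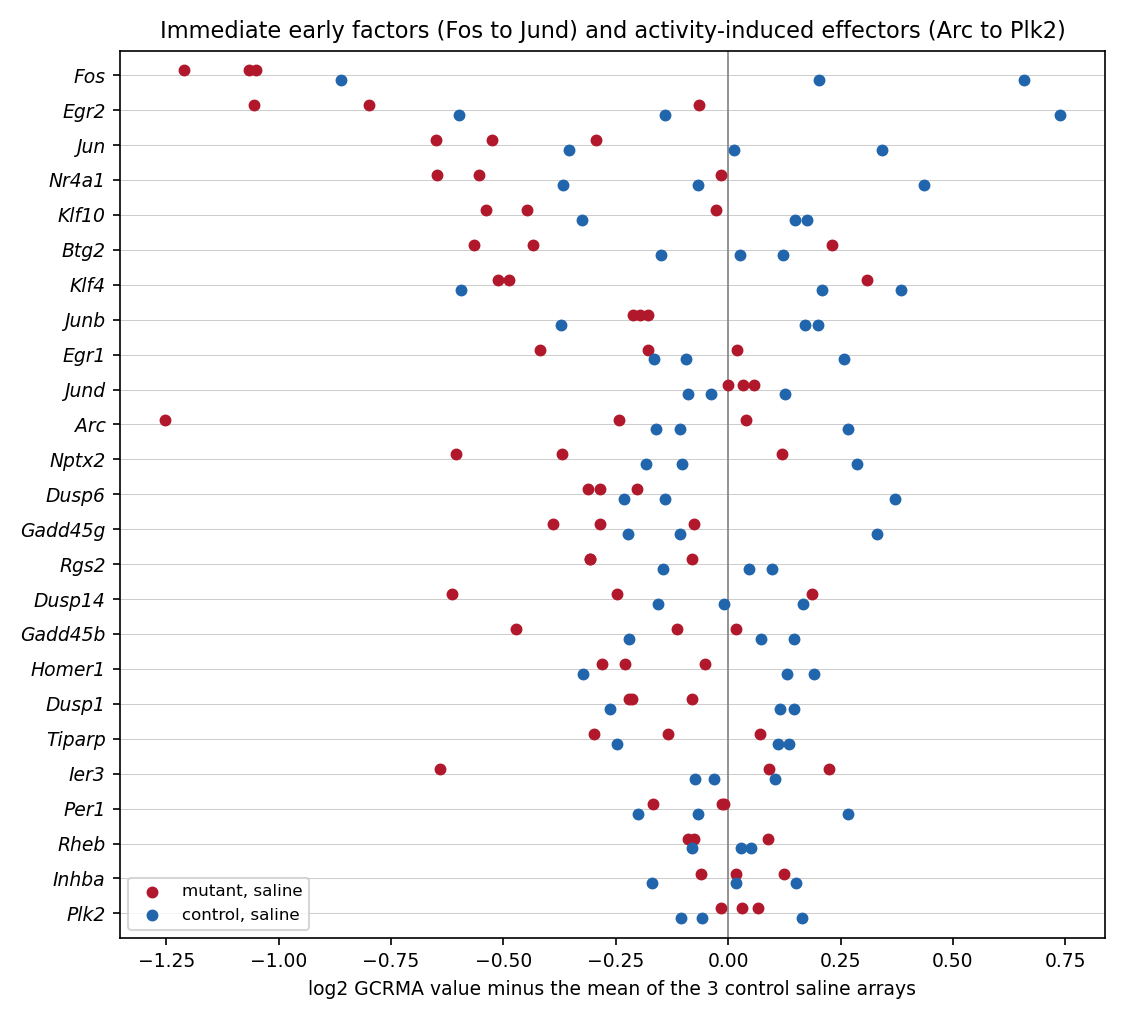
Immediate early factors (upper rows, Fos to Jund) and activity-induced effectors (lower rows, Arc to Plk2) after saline, as log2 GCRMA value per animal minus the mean of the 3 controls (x axis), mutants above controls in each row. Most mutant points lie left of 0, Fos is the 1 gene in which the groups do not overlap, and the control animals spread widely in Fos, Egr2, Jun and Nr4a1.

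Since these genes are known CREB targets, promoters were read for the cAMP response element. The windows shown are the 250 bases upstream of the start of transcription (RefSeq, GRCm38.p6), 5′ to 3′ along the gene, for 2 immediate early factors, for Rgs2 and for Rgs4, with every half-site TGACG, on either strand (CGTCA), in capitals. They lie at chr12:85473640-85473889 on the plus strand for Fos and, on the minus strand, at chr8:84978749-84978998 for Junb, chr1:144004150-144004399 for Rgs2 and chr1:169747643-169747892 for Rgs4.
Fos: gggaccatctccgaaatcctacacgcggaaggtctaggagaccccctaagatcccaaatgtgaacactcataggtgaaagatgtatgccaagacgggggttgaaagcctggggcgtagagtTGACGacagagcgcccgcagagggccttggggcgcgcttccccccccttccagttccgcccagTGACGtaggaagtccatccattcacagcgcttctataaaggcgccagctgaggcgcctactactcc
Junb: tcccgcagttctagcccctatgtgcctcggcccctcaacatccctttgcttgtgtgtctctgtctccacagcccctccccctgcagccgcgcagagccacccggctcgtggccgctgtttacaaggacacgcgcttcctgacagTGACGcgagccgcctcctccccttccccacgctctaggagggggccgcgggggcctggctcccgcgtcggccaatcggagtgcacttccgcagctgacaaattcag
Rgs2: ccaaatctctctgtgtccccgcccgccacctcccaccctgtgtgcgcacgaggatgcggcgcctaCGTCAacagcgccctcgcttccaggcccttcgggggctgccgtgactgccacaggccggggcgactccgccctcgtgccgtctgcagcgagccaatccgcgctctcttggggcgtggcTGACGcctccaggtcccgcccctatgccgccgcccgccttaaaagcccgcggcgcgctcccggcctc
Rgs4: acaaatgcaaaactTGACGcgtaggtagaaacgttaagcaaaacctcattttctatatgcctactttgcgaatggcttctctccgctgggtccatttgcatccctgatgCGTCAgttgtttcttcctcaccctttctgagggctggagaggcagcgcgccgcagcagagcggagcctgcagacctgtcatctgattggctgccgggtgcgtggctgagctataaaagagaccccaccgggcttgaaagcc

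Fos has half-sites that begin at -129 and -66 from the start, the second upstream of its TATA box. Junb has 1, at -106. Rgs2 has 1 on each strand, at -185 and -67, and Rgs4, 1 of the 12 lower genes, has 1 on each strand, at -236 and -141. Such a match is a string of letters and not evidence of binding: 17.8% of all 32851 windows hold a half-site, and 1.55% hold the full palindrome TGACGTCA, which contains both half-sites. Counted per gene, of 6115 measured genes with a window, 1993 had a half-site and 195 the full element in at least 1 of their windows. A gene can have several windows, so these counts cannot be compared with the shares of windows.

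Genes with these letters had shares close to those of all genes after saline. Of the 7468 genes, 6115 had a window, of which 8.28% were higher and 3.22% lower without overlap, with a median of 0.0302. The 195 genes with the full element had 16 higher (8.21%) and 6 lower (3.08%) and a median of 0.0166. The 1993 genes with a half-site had 8.73% higher and 3.56% lower (median 0.0290), and the 4122 without one 8.05% and 3.06% (median 0.0311).

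Of 14 medium spiny neuron genes measured, 10 were above 0 and 4 below, against 38.7% of all genes below 0. Their median was 0.0428 (0.132 with the actin covariate), against 0.0298 over all genes. Rgs9, the striatum-enriched RGS protein that acts on D2 signalling, was the 1 member without overlap, at 0.20 ± 0.05 (limma adjusted p = 0.778). Of all genes, 8.28% were higher without overlap. Ppp1r1b differed by 0.01 ± 0.03, Drd2 by 0.11 ± 0.07, the phosphodiesterases Pde1b and Pde10a by 0.08 ± 0.05 and -0.23 ± 0.22, and the transcription factors Bcl11b and Foxp1 by 0.14 ± 0.06 and 0.16 ± 0.09. In Rgs9 the cocaine animals differed by 0.02.

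The peptide genes were split, 4 above 0 and 4 below. Penk differed by 0.06 ± 0.03 and was the 1 of 8 without overlap, against 8.28% of all genes higher without overlap. Tac1 (substance P) differed by -0.06 ± 0.06 and Pdyn (dynorphin) by -0.10 ± 0.17. Markers of GABAergic interneurons had a median of -0.00313 (-0.0357 to 0.0196 with an array left out), 6 above 0 and 6 below, with Sst at 0.01 ± 0.07, Npy at 0.02 ± 0.09 and Pvalb at 0.02 ± 0.16. Of the cholinergic list 3 genes were measured, with Ache, acetylcholinesterase, at 0.36 ± 0.15 and overlapping, and Chat was not among them.

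Synaptic genes differed little. Of 23 genes of vesicle release and endocytosis, 16 were above 0 and 7 below, against 38.7% of all genes below 0. Their median was 0.0335 (-0.000399 to 0.0859 with an array left out), against 0.0298 over all genes. Pacsin1 alone was separated, against 8.28% of all genes higher without overlap. Snap25 and Syt1, of the fusion machinery and its calcium sensor, differed by -0.04 ± 0.05 and -0.22 ± 0.13. Of 10 postsynaptic density genes, Nlgn2, the adhesion molecule of inhibitory synapses, was higher without overlap at 0.17 ± 0.06 and Baiap2, a spine actin regulator, at 0.07 ± 0.04, 2 of 10 against 8.28% of all genes. Their median of 0.0493 was -0.00966 without mutant replicate 1. Gria1, an AMPA receptor subunit, was the 1 separated of 5 glutamate receptor genes, at 0.09 ± 0.04, against 8.28% of all genes higher without overlap. The 5 GABA receptor genes and the 15 channel genes all overlapped, with medians of 0.0745 and -0.0593, which were -0.0119 and 0.0166 with the actin covariate.

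Of 17 astrocyte markers, 13 were below 0, against 38.7% of all genes, and the median was -0.0727. That median was -0.0131 without mutant replicate 2, -0.0193 without control replicate 2, -0.0289 without control replicate 1, -0.122 without control replicate 3 and -0.0108 with the actin covariate. Gfap and Gjb6, a gap junction protein, were the 2 lower without overlap, against 3.36% of all genes. Gjb6 read 8.46, 8.33 and 8.59 in mutants and 8.64, 8.61 and 8.89 in controls (-0.25 ± 0.10). Other astrocyte genes were closer to 0, with Aldoc, a glycolytic enzyme, at -0.05 ± 0.05, Gja1, another gap junction protein, at -0.07 ± 0.05 and Apoe at 0.02 ± 0.06. In the cocaine animals the list's median was 0.0326.

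Oligodendrocyte markers had 9 of 11 above 0 and 2 below, against 38.7% of all genes below 0. All overlapped, with Mbp, myelin basic protein, at 0.00 ± 0.04. Their median was 0.0819, and 0.0359 without mutant replicate 3, 0.0184 without control replicate 2, 0.0253 without control replicate 3, 0.190 without control replicate 1 and 0.222 with the actin covariate. Of 7 measured genes of the precursor list, 2 were higher and 1 lower without overlap, against 8.28% and 3.36% of all genes. Olig2, a lineage transcription factor, was higher: it read 7.84, 7.71 and 7.80 in mutants and 7.37, 7.57 and 7.42 in controls (0.33 ± 0.09). Cspg5, a proteoglycan, was also higher (0.12 ± 0.05), and Vcan, versican, lower (-0.57 ± 0.19), with dim values of 3.62, 3.87 and 4.16 in mutants and 4.27, 4.30 and 4.78 in controls. Sox10 and Olig1, other factors of the lineage, overlapped at 0.09 ± 0.11 and 0.07 ± 0.05. The 13 microglial and 12 endothelial and mural genes all overlapped, with medians of -0.0273 (0.0397 with the actin covariate) and 0.0981 (0.0219 to 0.219 with an array left out).

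Genes that respond to glucocorticoids and handling stress leaned downward, 12 of 15 below 0 against 38.7% of all genes, with a median of -0.143. Tsc22d3 (GILZ) differed by -0.22 ± 0.13, Fkbp5, a chaperone of the receptor, by -0.13 ± 0.09, and Sgk1 by -0.14 ± 0.21, all overlapping. Gjb6 was the 1 member without overlap, against 3.36% of all genes lower without overlap. Without control replicate 3 the list's median was -0.0728, without mutant replicate 2 it was -0.0911, and with the actin covariate it was -0.174. The heat shock and ER stress list had 12 of 17 below 0 (against 38.7% of all genes), all overlapping, with Hspa1b, inducible HSP70, at -0.64 ± 0.38. Its median of -0.0713 was -0.0159 without control replicate 2, -0.0452 without mutant replicate 1, -0.114 without mutant replicate 3, -0.137 without control replicate 3 and 0.0645 with the actin covariate.

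Clock genes had a median of 0.0148, and of -0.0668 to 0.0547 with an array left out. Clock read 8.50, 8.45 and 8.72 in mutants and 8.38, 8.40 and 8.31 in controls (0.19 ± 0.09), and Per2, a repressor of the clock, differed by -0.37 ± 0.27. Of 27 genes of the respiratory chain and ATP synthase, 19 were above 0 and 8 below, against 38.7% of all genes below 0. Their median was 0.0519, against 0.0298 over all genes. Sdha and Sdhb, of succinate dehydrogenase, were among the 4 higher without overlap (8.28% of all genes were), at 0.09 ± 0.05 each. Ribosomal protein genes were level, at a median of 0.000296 (-0.0111 to 0.0238 with an array left out). Of 5 interferon and complement genes, Ifit2 alone was higher without overlap, against 8.28% of all genes. It read 5.79, 5.15 and 5.02 in mutants and 4.49, 4.71 and 4.58 in controls (0.73 ± 0.20), while its neighbour Ifit3 differed by 0.22 ± 0.36.

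**Figure D5:**
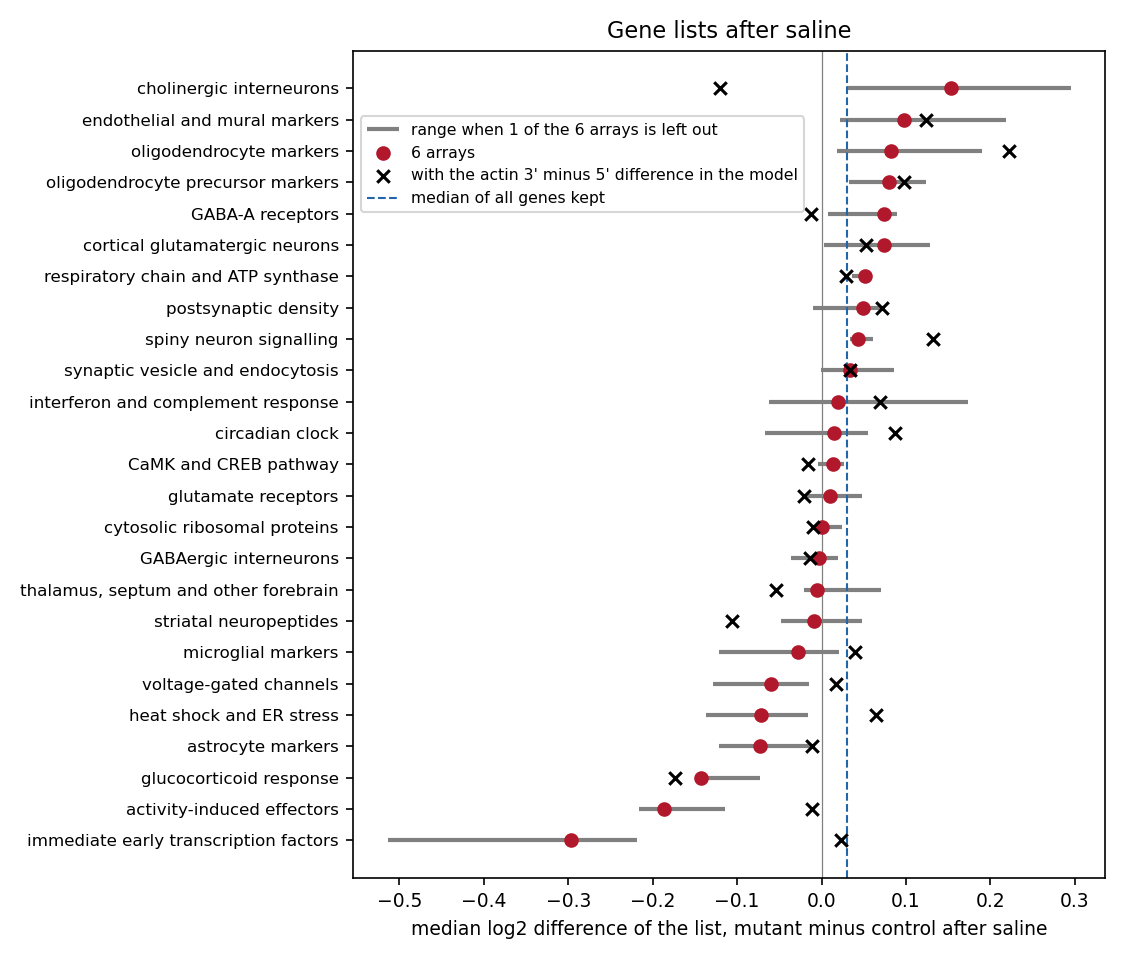
Median log2 difference, mutant minus control after saline, of each gene list (x axis), with the range when 1 of the 6 arrays is left out (grey lines), the value with the actin 3′ minus 5′ difference in the model (crosses) and the median of all 7468 genes (dashed line, 0.0298). The immediate early factors lie lowest at -0.30 and the effectors next at -0.19; with the actin term these are 0.0226 and -0.0108.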

How the data were processed

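Expression in mouse striatum was measured on Affymetrix arrays, 1 per animal. The authors deposited log2 expression values, made with GCRMA in R 2.4.1 per the submitters' processing notes. GCRMA corrects background, equalises array distributions and summarises each probe set, so changes in total signal are lost and dim differences are compressed. No source used here gives its settings. Of 22690 probe sets, 64 controls were left out, and those above log2 4 in at least 3 of the 6 saline arrays were kept: 12412, of which 11505 carried 1 symbol, 400 several and 507 none. Only those with 1 symbol were named. The 6 arrays were fitted with limma 3.58.1 (R 4.3.3; lmFit, eBayes with a variance trend, two-sided, Benjamini-Hochberg, adjusted p under 0.05), leaving 4 residual degrees of freedom plus 3.38 from moderation. The fit was tested on simulated data. In a list, a gene stood as its brightest probe set. ± is the SE of a difference. Separate cocaine arrays (3 against 3) and the genotype by treatment interaction (12 arrays) used the same settings.

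Named were Camk4, the 12 genes of smallest p per direction among non-overlapping probe sets (fewer than 5 passed), and from each list the 2 largest non-overlapping or else the 2 brightest members. Further list members are given to describe their list and were chosen after their values were seen. Members and lists were chosen with earlier results of these data known. Replicate numbers come from the titles; the labels call the animals littermates, which animals share a litter is not given, and p-values measure the spread between these animals. Same-numbered residuals correlated by 0.123, -0.086 and -0.237, and differently numbered ones by -0.239 to 0.311. With 3 arrays per group centred on their own mean, such values cannot settle whether the numbers pair animals. The main fit did not pair them. The alternatives tried were other filters, samples, scalings, variance models, array weights, the actin covariate and leaving out each array. The number of arrays limits the precision.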

Additional observations from a re-analysis of the deposited data

Results flagged for a closer look

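Among the named genes, 2 had the 3 mutants on opposite sides of the controls after saline and after cocaine. Both were higher after saline and lower after cocaine. Of all probe sets, 7.27% were higher without overlap after saline and 6.10% lower without overlap after cocaine. The share that did both was not counted. For Ifit2 (1418293_at) the difference was 0.73 ± 0.20 after saline, with 5.79, 5.15 and 5.02 in mutants and 4.49, 4.71 and 4.58 in controls. After cocaine it was -0.45 ± 0.14, with 4.46, 4.61 and 4.49 in mutants and 4.74, 5.02 and 5.17 in controls. The saline minus cocaine difference was 1.18. For Clock (1418659_at) the difference was 0.19 ± 0.09 after saline and -0.22 ± 0.10 after cocaine, 0.413 apart. Limma's adjusted p for the interaction was 0.966 in both genes, so neither change of direction passed.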

How the results depend on the processing

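No probe set passed under the other filters, sample sets, scalings, array weights, the actin covariate, no variance trend or an adjusted p under 0.1. An ordinary linear model called 1 (Sox9, 0.0858, adjusted p = 0.0418), and leaving out an array gave 0 to 1, the 1 being Paip1 (-3.72, adjusted p = 0.000518 in limma) without mutant replicate 1. Counts at an unadjusted p under 0.05 ran from 341 with all 18 arrays and 504 with the actin covariate to 963 with array weights, against 756. With the replicate block 0 were called and 637 had an unadjusted p under 0.05. Non-overlapping probe sets were 1274 to 2223 higher and 945 to 1398 lower with an array left out, which by construction compares 2 animals with 3. Camk4 kept its direction throughout, at -0.43 to -0.27 (1426167_a_at) and -0.32 to -0.18 (1421941_at) with an array left out. The 24 named genes kept theirs too, and 16 to 19 shared their sign with the cocaine animals when a cocaine array was left out, 21 with all 12 cocaine arrays (both chosen after seeing the data). Named list members near 0 changed sign, and the cause was not tested. With array weights or centring Mbp was -0.00825 or -0.0123. With centring Ctss was -0.00291 and Kcnab1 -0.00986, and Kcnab1 was -0.00354 with quantile normalization. With the actin covariate Kcnab1 was -0.0261, Rheb 0.0745, Hspa8 0.0275, Isl1 -0.131, Csf1r 0.0984 and Gabrd -0.0673. With an array left out, Rheb ran from -0.0822 to 0.00666, Mbp from -0.0210 to 0.0312, Csf1r from -0.115 to 0.0304, Slc2a1 from -0.0408 to 0.0160, Gad1 from -0.0877 to 7.64e-05, Nrgn from -0.150 to 0.0624, Kcnab1 from -0.0348 to 0.0288, Slc32a1 from -0.0512 to 0.0246, Ctss from -0.110 to 0.108 and Gabrd from -0.0250 to 0.0731.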

Other observations

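Of the 17 probe sets that differed by at least 1, 4 separated the groups, against 11.8% of all probe sets. In the rest the groups overlapped. Those described here were named after their values were seen. Paip1 (1425521_at), a partner of the poly(A) binding protein, read 7.11, 3.39 and 3.40 in mutants and 7.19, 7.17 and 7.00 in controls. Tmem87a (1424454_at), a Golgi membrane protein, read 7.74, 7.56 and 2.91 in saline mutants and 7.68, 7.73 and 7.62 in saline controls. In cocaine animals Tmem87a read 7.66, 7.64 and 7.74 in mutants and 3.43, 3.03 and 3.13 in controls, a difference of 4.48 ± 0.13. It was the 1 probe set of that comparison past the threshold (limma adjusted p = 1.19e-05, 0.00806% of those tested). Kif5c (1450804_at), a neuronal kinesin, read 2.48, 2.86 and 4.99 in saline mutants and 5.57, 5.64 and 4.82 in saline controls. Ywhaz (1416103_at), a 14-3-3 protein, read 11.99, 9.47 and 9.85 in saline mutants and 12.05, 11.27 and 11.87 in saline controls.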
